A study of Homo sapiens with 54 samples.

Results

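The clustered histone genes were taken as the gene symbols that start with HIST1H, HIST2H, HIST3H or HIST4H, which gave 73 of the 26517 symbols in each count table. They comprised 6 H1, 18 H2A, 20 H2B, 14 H3 and 15 H4 symbols, of which 56 lie in the HIST1 cluster on chromosome 6, 13 in the HIST2 cluster and 3 in the HIST3 cluster on chromosome 1, and 1 on chromosome 12. RNA was sequenced from BT549, a mesenchymal triple-negative breast cancer cell line, in 54 libraries that form 18 groups of 3 in 3 experiments. In the GATA6 experiment, pooled siRNAs targeting GATA6, a transcription factor, (siGATA6) or control siRNAs (siCtl) were applied for 72 h, followed by 500 nM dexamethasone (DEX, a glucocorticoid receptor agonist) for 2 h or by vehicle. In the BRM014 experiment, cells received BRM014, which blocks the ATPase subunits of SWI/SNF chromatin remodellers, or the solvent DMSO for 4 h or 24 h, and each was given alone or together with DEX at 500 nM. The protocol gives 10 µM as the BRM014 dose in its account of a 4 h treatment. Treatment for 24 h is given by the sample labels, with no separate statement of the doses. In the AP-1 experiment, cells received siRNAs against FRA1 (the product of FOSL1) or JUN, subunits of the transcription factor AP-1, or siCtl, with DEX or vehicle, and the sample labels give no dose or time for DEX. All libraries came from the BT549 line alone, and where the labels do not tie replicates to separate cultures, the p-values measure only the spread between these libraries.

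Canonical histones package DNA, with H2A, H2B, H3 and H4 forming the nucleosome core and H1 binding the linker between nucleosomes. The genes that encode them lie in clusters and are transcribed mainly while DNA is replicated, and their messenger RNAs usually end just after a short stem-loop instead of carrying a poly(A) tail. The stem-loop is bound by SLBP, and the U7 small nuclear ribonucleoprotein, which holds LSM10 and LSM11, directs the cut behind it. Some clustered genes also give longer, polyadenylated transcripts, which are seen in cells that have left the cycle or differentiate, and such transcripts are the ones captured when libraries select poly(A) RNA.

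The stem-loop is shown for the members that the comparisons below turn on, because it separates the usual end of a histone mRNA from a longer form. A stem-loop was found in an annotated transcript (GENCODE v29, GRCh38) of 33 members, and for 24 of these the longest such transcript ran at least 100 bases past it. The 16 bases of the stem and loop are in capitals, with the flanking bases in lower case.
HIST1H2AC: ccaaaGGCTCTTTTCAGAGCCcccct
HIST1H2AG: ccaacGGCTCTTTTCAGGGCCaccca
HIST3H2A: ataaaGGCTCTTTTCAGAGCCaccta
HIST1H2BD: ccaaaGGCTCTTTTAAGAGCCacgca
HIST1H2BH: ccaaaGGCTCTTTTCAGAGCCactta
HIST2H2BE: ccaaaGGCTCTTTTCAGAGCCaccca
HIST1H4E: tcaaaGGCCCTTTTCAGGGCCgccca
HIST4H4: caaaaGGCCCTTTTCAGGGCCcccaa
The annotated transcript that held it continued 1128 bases past the stem-loop for HIST1H2AC, 1761 for HIST1H2AG, 390 for HIST3H2A, 39 for HIST1H2BD, 1640 for HIST1H2BH, 1729 for HIST2H2BE, 1022 for HIST1H4E and 1510 for HIST4H4. For HIST1H2BD the 39 bases are those of a transcript of 496 bases, the shorter of 2, and its longest annotated transcript has 789 bases. The annotated transcripts of HIST1H1C, HIST1H2BK, HIST1H2BJ, HIST2H2AC and HIST1H4A held no stem-loop. For HIST1H1C, HIST1H2BK, HIST2H2AC and HIST1H4A only 1 transcript was annotated, of 642, 381, 390 and 312 bases. A stem-loop behind the annotated end would be missed, so its absence here does not show that the gene lacks it.

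RefSeq promoters (GRCh38.p14, from 250 bases before to 50 after the start) could be matched for 56 of the 73 members. Searched on both strands, TATAAA was present in 37 of 56 (66.1%), against 11.5% of all 35116 promoters. CCAAT was present in 46 of 56 (82.1%), against 34.6% of all promoters. It was found in every matched H1, H2A, H2B and H3 promoter and in 3 of 13 H4 promoters. The octamer ATTTGCAT was present in 19 of 56 (33.9%), against 1.8% of all promoters, and it was found in 11 of 16 H2A and 8 of 11 H2B promoters and in none of the others. The 250 bases before the start are printed for HIST1H2AC, the member most often called lower with DEX, and for HIST2H2AC, which neighbours HIST2H2BE on the opposite strand, with 323 bases between their starts in GENCODE v29. The printed windows precede the RefSeq starts, and for HIST2H2AC that start lies upstream of the GENCODE one. For HIST1H2AC it lies downstream, so the end of that window runs past the GENCODE start at 26124145. The HIST1H2AC window also holds the GENCODE start of HIST1H2BC, its neighbour on the opposite strand, 219 bases away. Capitals mark the 3 motifs in either orientation, and a match describes the letters only.
HIST1H2AC, plus strand, chr6:26123922-26124171: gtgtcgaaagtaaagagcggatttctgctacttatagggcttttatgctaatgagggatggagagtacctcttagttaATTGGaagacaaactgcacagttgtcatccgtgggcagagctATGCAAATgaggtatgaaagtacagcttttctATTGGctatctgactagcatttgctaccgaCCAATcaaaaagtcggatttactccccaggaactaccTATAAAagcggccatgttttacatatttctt
HIST2H2AC, plus strand, chr1:149886668-149886917: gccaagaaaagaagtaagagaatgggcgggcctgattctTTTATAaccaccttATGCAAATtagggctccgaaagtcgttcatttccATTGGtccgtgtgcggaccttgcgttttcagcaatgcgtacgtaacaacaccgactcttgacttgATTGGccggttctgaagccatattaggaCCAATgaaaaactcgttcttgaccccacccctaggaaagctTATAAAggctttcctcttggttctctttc

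Library totals were 12888724 to 30530736 counts in the GATA6 experiment, 13243316 to 29339329 in the BRM014 experiment and 10186607 to 16352524 in the AP-1 experiment, of which the clustered histone genes took between 861 and 2894 counts per library. The targeted genes followed the labels: GATA6 was at 10.1 to 10.4 counts per 1000000 of the scaled library size (CPM) in siGATA6 cells with vehicle, against 79.8 to 92.4 CPM in siCtl cells, and FOSL1 and JUN were likewise lower in every library with their own siRNA than in every siCtl library of the same treatment. The mesenchymal markers VIM, CD44, SPARC and AXL were present throughout, and ESR1, PGR, EPCAM and PECAM1 were near 0. CDH1, expected to be low, was at 0.903 to 16.6 CPM and PTPRC at no more than 2.16 CPM. In the BRM014 experiment some libraries stood apart from their group along GC content, with Spearman correlations between a gene's deviation from the group mean and its GC content of 0.42 to 0.65 in replicate 2 of BRM014 at 24 h, of DEX with DMSO at 24 h and of DEX with BRM014 at 4 h and 24 h, and of -0.68 to -0.5 in replicate 3 of BRM014, of DEX with DMSO and of DEX with BRM014 at 24 h. The BRM014 libraries at 4 h, with -0.44, -0.46 and 0.61, were kept throughout. ZEB1, a mesenchymal marker, was at 4.9 to 17.9 CPM in the 4 replicate 2 libraries, against 25.6 to 118 CPM in the other libraries of that experiment. Results from that experiment are given with and without these libraries where that changed a call.

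At the level of messenger RNA, a small number of members carried most of the signal. The highest was HIST1H2BK, an H2B gene (chromosome 6, 27146418 to 27146798, minus strand, 1 exon), with a mean of 38.4 CPM in the GATA6 experiment, 23.4 CPM in the BRM014 experiment and 28.9 CPM in the AP-1 experiment. It held 44.5%, 34.0% and 27.6% of all member counts in those experiments. The linker histone gene HIST1H1C (chromosome 6, 26055787 to 26056428, minus strand) was the highest of the H1 members in each experiment, at 8.02, 5.26 and 8.94 CPM in the same order. Among H2A members, HIST1H2AC led in the GATA6 experiment at 6.75 CPM and HIST3H2A led in the BRM014 and AP-1 experiments at 7.8 and 6.71 CPM. HIST1H3H led the H3 members in all 3 experiments, at 1.88, 1.6 and 1.25 CPM. The highest H4 member was HIST1H4H in the GATA6 experiment (1.07 CPM), HIST1H4C in the BRM014 experiment (0.87 CPM) and HIST1H4E in the AP-1 experiment (2.45 CPM). Per kilobase of annotated exon, HIST1H2BK reached 101, 61.3 and 75.7 CPM, while HIST1H1C reached 12.5, 8.2 and 13.9 CPM per kilobase. These values divide by GENCODE v29 lengths of 381 and 642 bases. They are too high if the gene models behind the counts, which are not given, are longer. H2B members together took 61.6%, 54.2% and 56.9% of the member counts, and H3 and H4 members each took 6.78% or less. Experiments were normalised separately and differ in their labels for RNA type, so their levels are set side by side without a test.

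Members known to give polyadenylated transcripts were set apart as a list (HIST1H1C, HIST1H2AC, HIST1H2BC, HIST1H2BD, HIST1H2BJ, HIST1H2BK, HIST1H4H, HIST2H2AA3, HIST2H2BE, HIST2H2BF and HIST3H2A). This list of 11 held 82.9% of the member counts in the GATA6 experiment, 75.8% in the BRM014 experiment and 67.4% in the AP-1 experiment. The other 62 members summed to 13.0 to 17.3 CPM per library in the GATA6 experiment, 12.8 to 23.1 CPM in the BRM014 experiment and 25.9 to 40.0 CPM in the AP-1 experiment. The other members were thus highest in the AP-1 experiment, whose libraries are labelled poly(A) RNA, while the protocol text common to all samples names a ribosomal RNA depletion step. Of 12 listed RNAs without a poly(A) tail, the mean level was also highest there, except for RNU7-1, which had no count, and RN7SL2, a signal recognition particle RNA, at 46.6 CPM in the AP-1 experiment, 63.5 CPM in the GATA6 experiment and 23.6 CPM in the BRM014 experiment. For RNU12 the means in the AP-1 and GATA6 experiments were close, at 0.105 and 0.103 CPM. RN7SK, the 7SK small nuclear RNA, was at 66.9 to 110 CPM in the AP-1 experiment, against 2.38 to 11.9 CPM in the GATA6 experiment and 0.511 to 3.19 CPM in the BRM014 experiment. RMRP, the RNA of the mitochondrial RNA processing ribonuclease, was at 25.3 to 40.5 CPM in the AP-1 experiment, against 0.794 to 2.33 CPM in the GATA6 experiment and 0.171 to 0.973 CPM in the BRM014 experiment. The part of library type in the histone levels was not tested, because library type and experiment cannot be told apart.

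**Figure D1:**
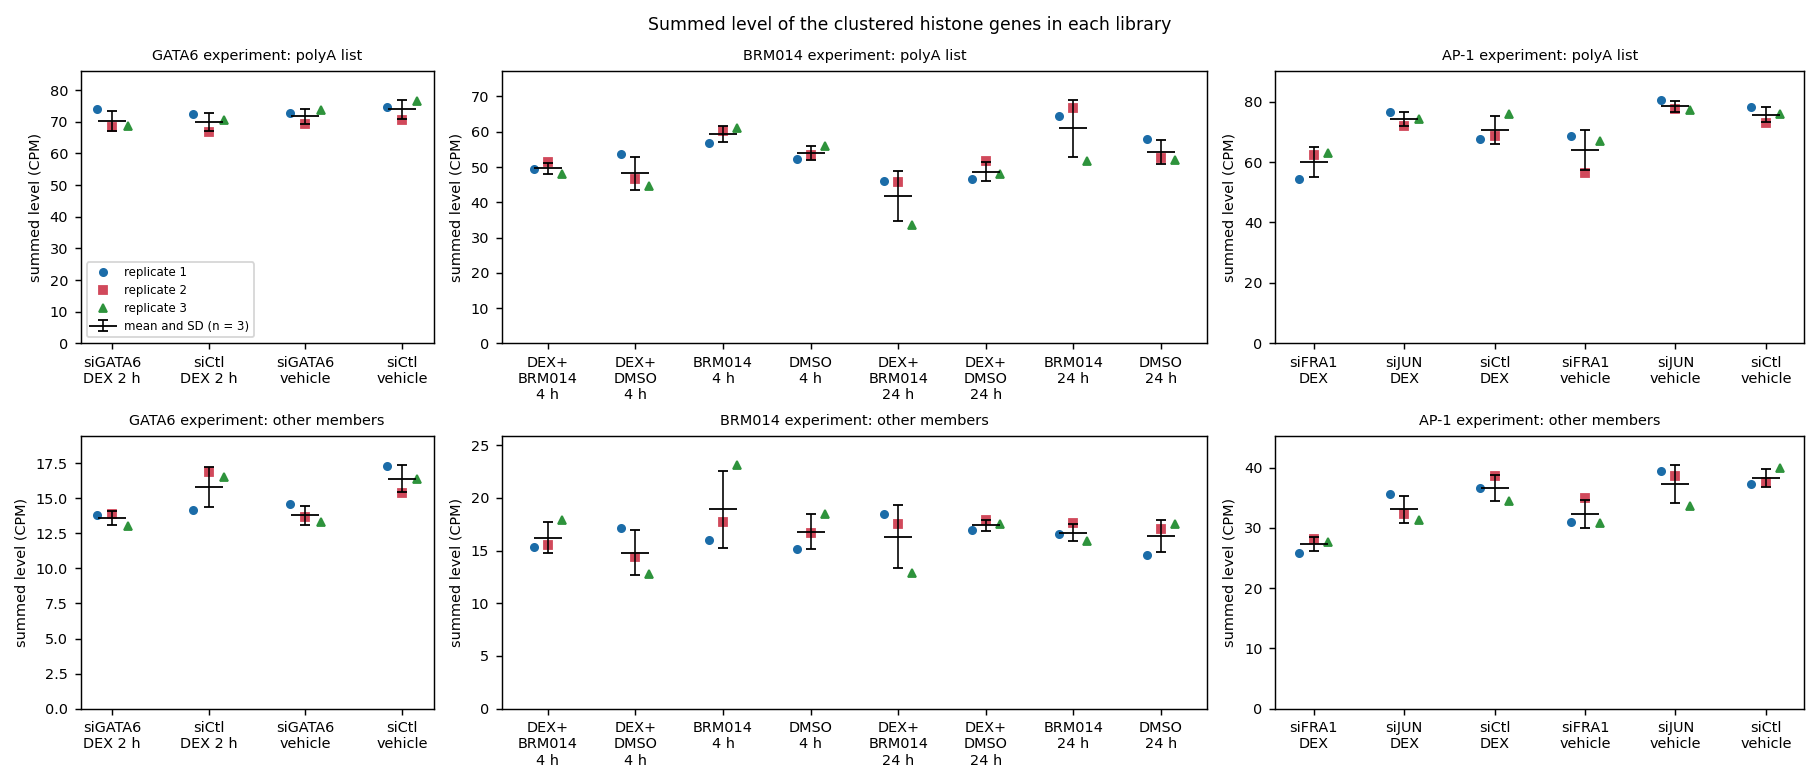
Summed level of the 11 members of the polyadenylated list (top) and of the 62 other members (bottom), in CPM on axes from 0, for each library of the 3 experiments; points are libraries and bars the mean and SD of 3. The lowest sum of the list is that of replicate 3 of DEX with BRM014 at 24 h (33.5 CPM), and the other members sum to 25.9 to 40.0 CPM in the AP-1 experiment, above the 12.8 to 23.1 CPM of the BRM014 experiment.

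Near-identical copies limit what can be read for some members. In 13 members over 50% of the 50-base windows of the annotated transcripts also occur in another histone gene, and in HIST1H4K, HIST2H2AA3, HIST2H3A and HIST2H3C all windows do. No count in any library was recorded for 9 members, among them HIST2H2AA3, HIST2H2AA4, HIST2H3A, HIST2H3C, HIST2H4A and HIST2H4B, which share between 97.1% and 100% of their windows. HIST1H2BK shares 22.6% of its windows and HIST2H2AC 30.5%, so part of their counts may belong with other copies. HIST1H1C, HIST1H2BH, HIST3H2A, HIST1H4A, HIST1H4E and HIST4H4 share no window.

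Divergent neighbours differed widely in level in some pairs and little in others. In 12 pairs an H2A and an H2B member start within 1000 bases of each other on opposite strands. HIST1H2BK was at 61.3 CPM per kilobase in the BRM014 experiment, while its neighbour HIST1H2AH, which starts 331 bases away, was at 0.161 CPM per kilobase. HIST3H2A was at 8.71 CPM per kilobase and its neighbour HIST3H2BB at 0.191 in the same experiment. HIST2H2AC was at 5.25 CPM per kilobase and HIST2H2BE at 1.52, but in the AP-1 experiment they were at 3.42 and 3.03. Their order rests on the annotated lengths of 390 and 2194 bases. Before division by length HIST2H2AC was the lower, at 2.05 CPM against 3.33 CPM in the BRM014 experiment. In the AP-1 experiment the means were 1.33 and 6.64 CPM. HIST1H2AI and HIST1H2BL were at 0.637 and 0.93 CPM per kilobase in the BRM014 experiment, and HIST1H2AM and HIST1H2BO at 3.45 and 4.69 in the AP-1 experiment. These values use the GENCODE v29 exon length, and the annotation behind the counts is not given in the sources used here.

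A member was called changed in a comparison when edgeR's quasi-likelihood test gave an adjusted p (Benjamini-Hochberg, over all genes tested in that experiment) under 0.05. After the filter on low counts, 22 of the 73 members were tested in the GATA6 experiment, 28 in the BRM014 experiment and 33 in the AP-1 experiment, and 36 in at least 1 of them. Over 27 comparisons, 13 members were called at least once, with 31 calls in all, and 12 comparisons had no call. Of all genes, 0% (DMSO at 24 h against 4 h) to 17.9% (lower with BRM014 at 24 h with DEX) were called per direction. The share of all genes is given below with the member count of each comparison. Of the 31 member calls, 21 fell on 7 members of the polyadenylated list. That list held 9 of the 22, 9 of the 28 and 10 of the 33 members tested, and most of the member counts. Whether its members were called more often than other members of like count was not tested. In 13 of the 31 calls the member was also called in every fit that left out 1 library. Several comparisons share a group: each siRNA or inhibitor comparison and each DEX comparison that uses the same control libraries is linked to the others through them.

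**Figure D2:**
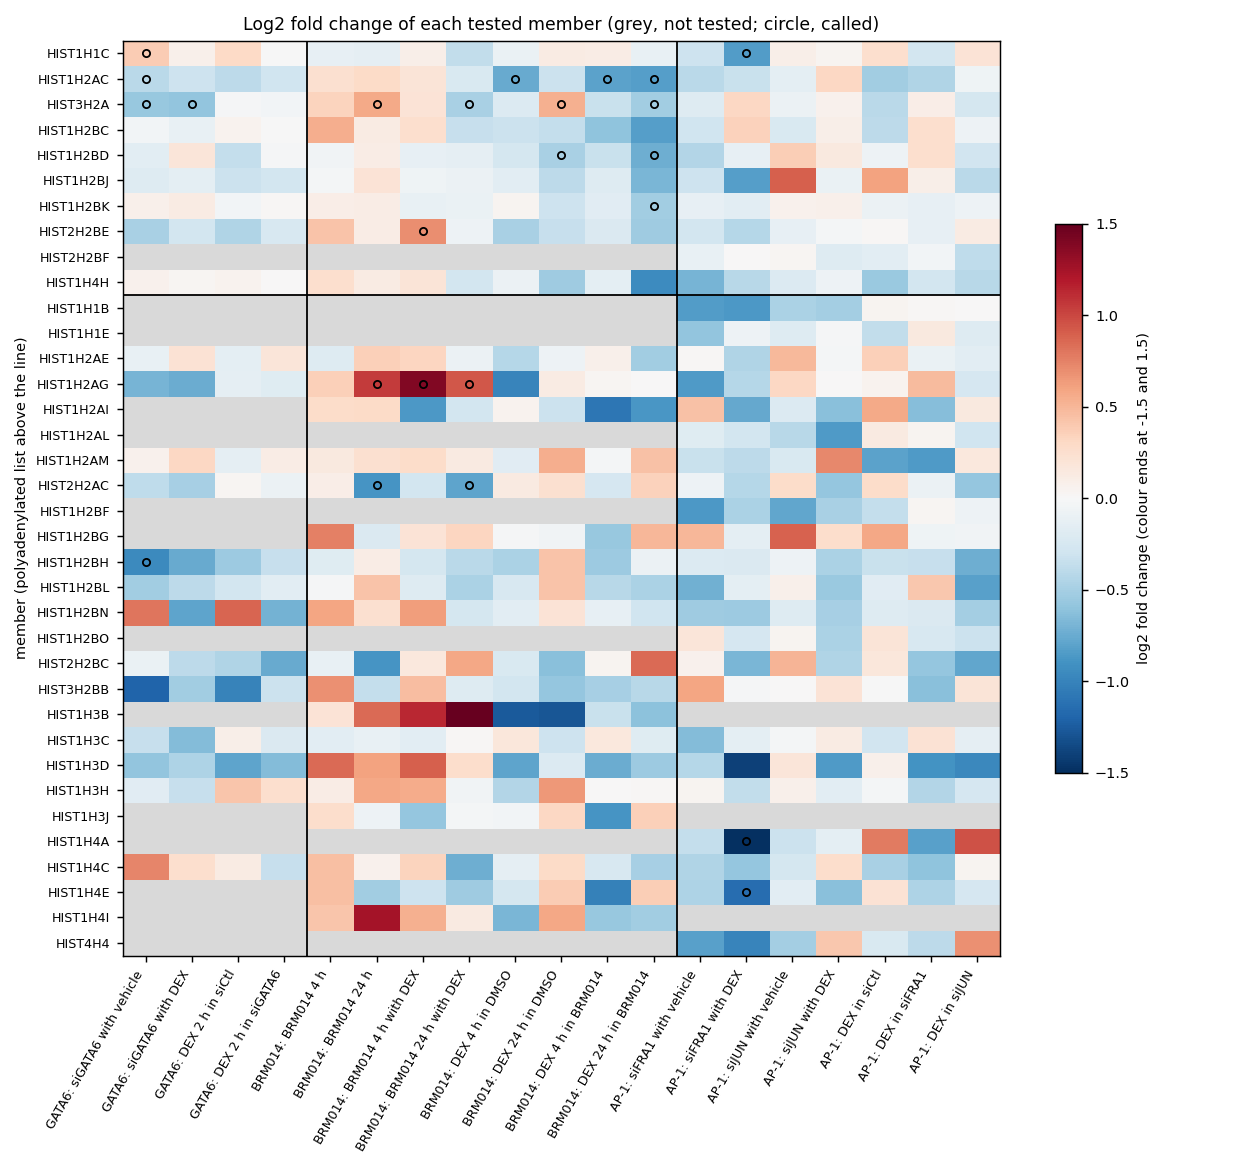
Log2 fold change of each of the 36 tested members (down the page) in 19 two-group comparisons (across), with red for higher and blue for lower in the treated or siRNA group, grey for not tested, and a circle where the member was called. Colours end at -1.5 and 1.5, and the members with the most calls are HIST3H2A, HIST1H2AC and HIST1H2AG.

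Knockdown of GATA6 lowered HIST3H2A, with and without DEX. HIST3H2A (chromosome 1, 228456979 to 228457873, minus strand, 1 exon) encodes an H2A protein of the small HIST3 cluster. It was at 5.12, 4.58 and 5.26 CPM in siGATA6 cells with vehicle, against 6.78, 6.57 and 8.35 CPM in siCtl cells. All 3 knockdown libraries lay below all 3 controls, and the log2 fold change was -0.57 ± 0.141 (SE; edgeR adjusted p = 0.0047). With DEX, HIST3H2A was at 4.83, 3.76 and 5.72 CPM in siGATA6 cells, against 7.72, 6.88 and 7.3 CPM in siCtl cells. The groups again did not overlap, with a log2 fold change of -0.59 ± 0.143 (edgeR adjusted p = 0.0046). Without siCtl replicate 3, which is the highest control, the value with vehicle was -0.42 (edgeR adjusted p = 0.0707), and with DEX the call held in every fit that left out 1 library. In bulk RNA, fewer cells that express a gene and less RNA per cell cannot be told apart, here and in all comparisons that follow.

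With vehicle, 3 further members were called after GATA6 knockdown. HIST1H2BH, an H2B gene whose annotated transcript runs far past its stem-loop, was at 0.545, 0.924 and 0.812 CPM in siGATA6 cells, against 1.39, 1.63 and 1.51 CPM in siCtl cells. These groups did not overlap, and the log2 fold change was -0.95 ± 0.269 (edgeR adjusted p = 0.0124). HIST1H2AC, an H2A gene (chromosome 6, 26124145 to 26139116, plus strand), was at 5.67, 7.39 and 6.5 CPM in siGATA6 cells, against 7.85, 8.88 and 9.03 CPM in siCtl cells, a log2 fold change of -0.40 ± 0.136 (edgeR adjusted p = 0.036). HIST1H1C, which encodes the linker histone H1.2, moved the other way, at 9.21, 7.95 and 8.89 CPM in siGATA6 cells, against 6.85, 5.76 and 7.1 CPM in siCtl cells. Its log2 fold change was 0.38 ± 0.125 (edgeR adjusted p = 0.0304). The siGATA6 and siCtl libraries did not overlap for either gene. The HIST1H1C call was lost without siCtl replicate 1 (0.40, edgeR adjusted p = 0.0572) or 2 (0.30, 0.127) or siGATA6 replicate 1 (0.34, 0.0924) or 3 (0.36, 0.0768). The HIST1H2AC call was lost without siCtl replicate 2 (-0.38, edgeR adjusted p = 0.0877) or 3 (-0.35, 0.137) or siGATA6 replicate 1 (-0.32, 0.139) or 3 (-0.39, 0.078), and with DESeq2 (-0.40, adjusted p = 0.0544). HIST1H2BH was not called without siGATA6 replicate 1 (-0.79, edgeR adjusted p = 0.059).

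With vehicle, 1 of 22 members was called higher and 3 lower after GATA6 knockdown, against 12.1% of all 13897 genes called higher and 11.6% called lower. Groups did not overlap for 8 members, against 37.3% of all genes. The median log2 fold change was -0.18 over the members, with 6 of 22 above 0, and 0.01 over all genes, with 52.4% above 0. With DEX, none of the 22 was called higher and HIST3H2A alone was called lower, against 11.1% and 11.5% of all genes, while groups did not overlap for 2 members, against 38% of all genes. RN7SK was higher in siGATA6 cells with vehicle (log2 fold change 1.48, edgeR adjusted p = 0.00759), as was RNA45S5, the ribosomal RNA precursor (1.61, edgeR adjusted p = 0.0096), and their part in the histone values was not tested. Of 5 BT549 markers, VIM, CD44 and AXL were called higher in siGATA6 cells with vehicle (log2 fold changes 0.22, 0.36 and 0.23) and with DEX (0.19, 0.29 and 0.21). Markers of other cell types summed to 4.53 to 6.07 CPM in siGATA6 cells and 3.87 to 6.11 CPM in siCtl cells with vehicle, and the part of either list was not tested.

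DEX for 2 h left no member called in either siRNA group. In siCtl cells edgeR and DESeq2 each called 0 of 22 members, and 5 had an unadjusted edgeR p under 0.05, against 8.74% of all genes called higher and 7.2% called lower. Groups did not overlap for 8 members there, against 30.5% of all genes. In siGATA6 cells both tools called 0 and 1 member had an unadjusted edgeR p under 0.05, against 7.98% of all genes called higher and 7.97% called lower, and groups did not overlap for 4 members, against 30.3% of all genes. HIST1H2AC was at 6.97, 5.07 and 7.83 CPM with DEX, against 7.85, 8.88 and 9.03 CPM with vehicle in siCtl cells, so the groups did not overlap, with a log2 fold change of -0.39 ± 0.14 that missed the threshold (edgeR adjusted p = 0.0623). Other settings, including the replicate number as a block, called up to 3 members here. The share of all genes called in those settings is not given here, so that count is not read as a result about the members. For the difference between the DEX effects in siGATA6 and siCtl cells, both tools called 0 members and 1 had an unadjusted edgeR p under 0.05, against 0.0935% of all genes called higher and 0.245% called lower.

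BRM014 for 24 h moved 3 H2A members in opposite directions. HIST2H2AC, an H2A gene of the HIST2 cluster (chromosome 1, 149886975 to 149887364, plus strand), was at 1.0, 1.33 and 1.27 CPM with BRM014, against 2.1, 2.17 and 2.42 CPM with DMSO. The groups lay well apart, and the log2 fold change was -0.89 ± 0.217 (edgeR adjusted p = 0.0032). HIST2H2BE, its neighbour on the opposite strand, was at 4.15, 4.38 and 2.74 CPM with BRM014, against 4.32, 3.28 and 2.79 CPM with DMSO. These groups overlapped, with a log2 fold change of 0.12 ± 0.202 (edgeR adjusted p = 0.737). HIST3H2A was at 10.8, 10.6 and 7.38 CPM with BRM014, against 7.23, 6.74 and 5.44 CPM with DMSO. Replicate 3 was the lowest of its group on both sides, the groups did not overlap, and the log2 fold change was 0.57 ± 0.152 (edgeR adjusted p = 0.0064). HIST1H2AG, an H2A gene of the HIST1 cluster (chromosome 6, 27133042 to 27135291, plus strand), was at 1.57, 2.13 and 1.11 CPM with BRM014, against 0.627, 1.11 and 0.612 CPM with DMSO. The lowest BRM014 and the highest DMSO library were both at 1.11 CPM, and the log2 fold change was 1.05 ± 0.306 (edgeR adjusted p = 0.0114).

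The HIST2H2AC and HIST3H2A calls at 24 h held in every fit that left out 1 library. When the groups were compared alone, the calls on HIST3H2A (0.57, edgeR adjusted p = 0.0675) and HIST1H2AG (1.06, 0.066) were lost. The HIST1H2AG call was lost without DMSO replicate 1 (0.92, edgeR adjusted p = 0.0548), DMSO replicate 3 (0.90, 0.0623) or BRM014 replicate 2 (0.79, 0.0849), which is a library that stood apart along GC content, and without all 4 such libraries it was 0.79 (0.0836). In all, 2 of 28 members were called higher and 1 lower, against 15.1% and 16.4% of all 14547 genes, and groups did not overlap for 6 members, against 42.4% of all genes. The median log2 fold change was 0.13 over the members, with 20 of 28 above 0, and 0.01 over all genes. Scaling by library totals alone moved the median of all genes to 0.15 and that of the members to 0.26 in this comparison. Among BT549 markers VIM was called higher (log2 fold change 0.39) and CD44, AXL and SPARC lower (-0.43, -0.96 and -2.06). Markers of other cell types summed to 2.81 to 3.58 CPM with BRM014 and 7.41 to 9.18 CPM with DMSO, mostly CDH1, which was called lower (-1.60), and their part in the histone values was not tested.

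At 4 h, BRM014 left no member called in the absence of DEX: edgeR and DESeq2 both called 0 of 28, and 2 had an unadjusted edgeR p under 0.05, against 4.61% of all genes called higher and 4.06% called lower. Groups did not overlap for 3 members, against 35.8% of all genes. HIST2H2AC was at 2.0, 2.27 and 2.63 CPM with BRM014, against 2.67, 2.07 and 1.69 CPM with DMSO, and the groups overlapped. The BRM014 effect on HIST2H2AC differed between the times, by -0.99 ± 0.301 on the log2 scale for 24 h minus 4 h (edgeR adjusted p = 0.0416). This was the sole member called in that comparison, against 2.89% of all genes called higher and 6.55% called lower. It was called in 2 of 12 fits that left out 1 library, those without replicate 1 of DMSO or of BRM014 at 4 h. Leaving out any of the other 10 libraries lost the call, at -1.07 to -0.86 and adjusted p in edgeR of 0.05 to 0.113. Without the 3 libraries whose deviations fell with GC content it was -1.04 (edgeR adjusted p = 0.064). The HIST2H2AC call was also lost with no filter (-0.99, edgeR adjusted p = 0.0673), library totals (-0.85, 0.0698), the GC offset (-0.93, 0.0647), the GC offset with the replicate block (-0.92, 0.056) and the groups compared alone (-0.98, 0.0625). HIST2H2BE was at 4.33, 4.47 and 4.65 CPM with BRM014, against 3.29, 3.22 and 3.55 CPM with DMSO at 4 h. Its groups did not overlap, although the test was not passed (log2 fold change 0.42 ± 0.205, edgeR adjusted p = 0.233).

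In cells that also received DEX, HIST1H2AG was higher with BRM014 at both times. At 4 h it was at 0.755, 1.14 and 0.937 CPM with DEX and BRM014, against 0.41, 0.338 and 0.342 CPM with DEX and DMSO, and at 24 h at 1.61, 1.63 and 1.59 CPM, against 0.506, 1.06 and 0.988 CPM. No library of the inhibitor groups lay within the range of its control at either time. The log2 fold changes were 1.38 ± 0.376 at 4 h (edgeR adjusted p = 0.0164) and 0.94 ± 0.32 at 24 h (edgeR adjusted p = 0.0273). At 4 h the call was lost without replicate 2 or 3 of DEX with DMSO (1.34 each, edgeR adjusted p = 0.0644 and 0.0583), replicate 2 of DEX with BRM014 (1.22, 0.0804) or the 4 libraries whose deviations rose with GC content (1.22, 0.0666). At 24 h it was lost without replicate 1 of DEX with DMSO (0.64, edgeR adjusted p = 0.16) or replicate 1 or 2 of DEX with BRM014 (0.93 each, 0.0601 and 0.0573), or with the groups compared alone (0.96, 0.076). HIST1H2AG had between 24 and 117 counts per group of 3 libraries in this experiment, which makes it the member with the fewest counts among those called there. With BRM014 at 4 h without DEX, the 7 tested H2A members, HIST1H2AG among them, had log2 fold changes from -0.19 to 0.36, and none was called. For the interaction of BRM014 and DEX at 4 h they ran from -1.14 to 1.02, and none was called.

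HIST2H2BE was higher with DEX and BRM014 at 4 h, at 4.18, 3.79 and 3.66 CPM, against 2.46, 2.2 and 2.52 CPM with DEX and DMSO. The groups lay apart, with a log2 fold change of 0.69 ± 0.211 (edgeR adjusted p = 0.0321), but the call was lost in all 6 fits that left out 1 library, where the value was 0.64 to 0.73 and the adjusted p in edgeR between 0.0617 and 0.121. At 24 h in the presence of DEX, HIST2H2AC was at 1.3, 1.91 and 1.38 CPM with BRM014, against 2.67, 2.34 and 2.96 CPM with DMSO. Its log2 fold change of -0.79 ± 0.217 (edgeR adjusted p = 0.00715) was close to that without DEX, and the call held in all 6 such fits. Without the 3 libraries whose deviations fell with GC content, an alternative chosen after the data were seen, it was -0.66 (edgeR adjusted p = 0.0793), and with the groups compared alone -0.77 (0.0685). At 4 h with DEX, 2 of 28 members were called higher and none lower, against 5.38% and 7.44% of all genes, and groups did not overlap for 4, against 34.3% of all genes. At 24 h with DEX 1 was called higher and 2 lower, against 17.6% and 17.9%, and groups did not overlap for 5, against 39.7%.

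HIST3H2A was the sole member called for an interaction of BRM014 and DEX. DEX for 24 h raised it in DMSO cells, to 9.52, 9.71 and 8.81 CPM with DEX, against 7.23, 6.74 and 5.44 CPM without. In BRM014 cells it was at 7.71, 6.18 and 6.11 CPM with DEX, against 10.8, 10.6 and 7.38 CPM without. Each agent alone thus gave higher levels than DMSO in every library, while the 2 agents together gave a range, 6.11 to 7.71 CPM, that overlapped that of DMSO. The log2 fold change with DEX was 0.53 ± 0.153 in DMSO cells (edgeR adjusted p = 0.0136) and -0.52 ± 0.153 in BRM014 cells (edgeR adjusted p = 0.0249), where replicate 1 with DEX lay within the range without it. BRM014 in the presence of DEX gave -0.49 ± 0.154 (edgeR adjusted p = 0.0176). The interaction at 24 h was -1.06 ± 0.217 on the log2 scale (edgeR adjusted p = 0.00404) at which 1 of 28 members was called, against 3.77% of all genes called higher and 2.78% called lower.

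The HIST3H2A interaction held in all 12 fits that left out 1 library and in the other alternatives, with values from -1.21 to -0.94, but for the following. When the 4 libraries whose deviations rose with GC content were left out together, an alternative chosen after the data were seen, it was -0.89 (edgeR adjusted p = 0.0609). Without those 4 libraries the DEX effect was 0.50 in DMSO cells (edgeR adjusted p = 0.056) and -0.39 in BRM014 cells (0.236), and the BRM014 effect in DEX cells was -0.40 (0.141). Of its parts, the DEX effect in DMSO cells was lost without DMSO replicate 3 (0.42, edgeR adjusted p = 0.0758). The DEX effect in BRM014 cells was lost without replicate 1 or 2 of BRM014 (-0.42 and -0.44, edgeR adjusted p = 0.13 and 0.094) or replicate 2 or 3 of DEX with BRM014 (-0.47 and -0.46, 0.107 and 0.0877). The BRM014 effect in DEX cells was lost without replicate 2 of DEX with DMSO (-0.46, edgeR adjusted p = 0.0514) or replicate 2 or 3 of DEX with BRM014 (-0.44 each, 0.067 and 0.0588). With the groups of each comparison alone, all 3 effects missed the threshold, at 0.54 for DEX in DMSO cells (edgeR adjusted p = 0.0701), -0.53 for DEX in BRM014 cells (0.18) and -0.47 for BRM014 in DEX cells (0.0738). At 4 h HIST3H2A was at 7.95, 6.84 and 7.28 CPM with DEX and BRM014, 6.2, 6.98 and 5.89 CPM with DEX and DMSO, 8.17, 9.95 and 9.57 CPM with BRM014 and 6.89, 6.61 and 8.5 CPM with DMSO. No call was made on it at 4 h, and for the interaction at 4 h edgeR and DESeq2 called 0 members and none had an unadjusted edgeR p under 0.05, against 0.564% of all genes called higher and 1.73% called lower.

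The DEX effect on HIST3H2A in DMSO cells differed between the times, by 0.74 ± 0.218 on the log2 scale for 24 h minus 4 h (edgeR adjusted p = 0.0383). It was the sole member called in that comparison, against 2.61% of all genes called higher and 6.28% called lower. Leaving out 1 library lost the call for replicate 1 or 3 of DMSO at 4 h, 1 or 3 of DEX with DMSO at 4 h, 2 or 3 of DMSO at 24 h and 1 or 2 of DEX with DMSO at 24 h, at 0.62 to 0.78 and adjusted p in edgeR of 0.05 to 0.124. Without the 4 libraries whose deviations rose with GC content it was 0.70 (edgeR adjusted p = 0.0909). Between DMSO cells at 24 h and at 4 h, edgeR and DESeq2 called 0 members, none had an unadjusted edgeR p under 0.05, and 0% of all genes were called in either direction. Groups did not overlap there for 2 members, against 8.97% of all genes.

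**Figure D3:**
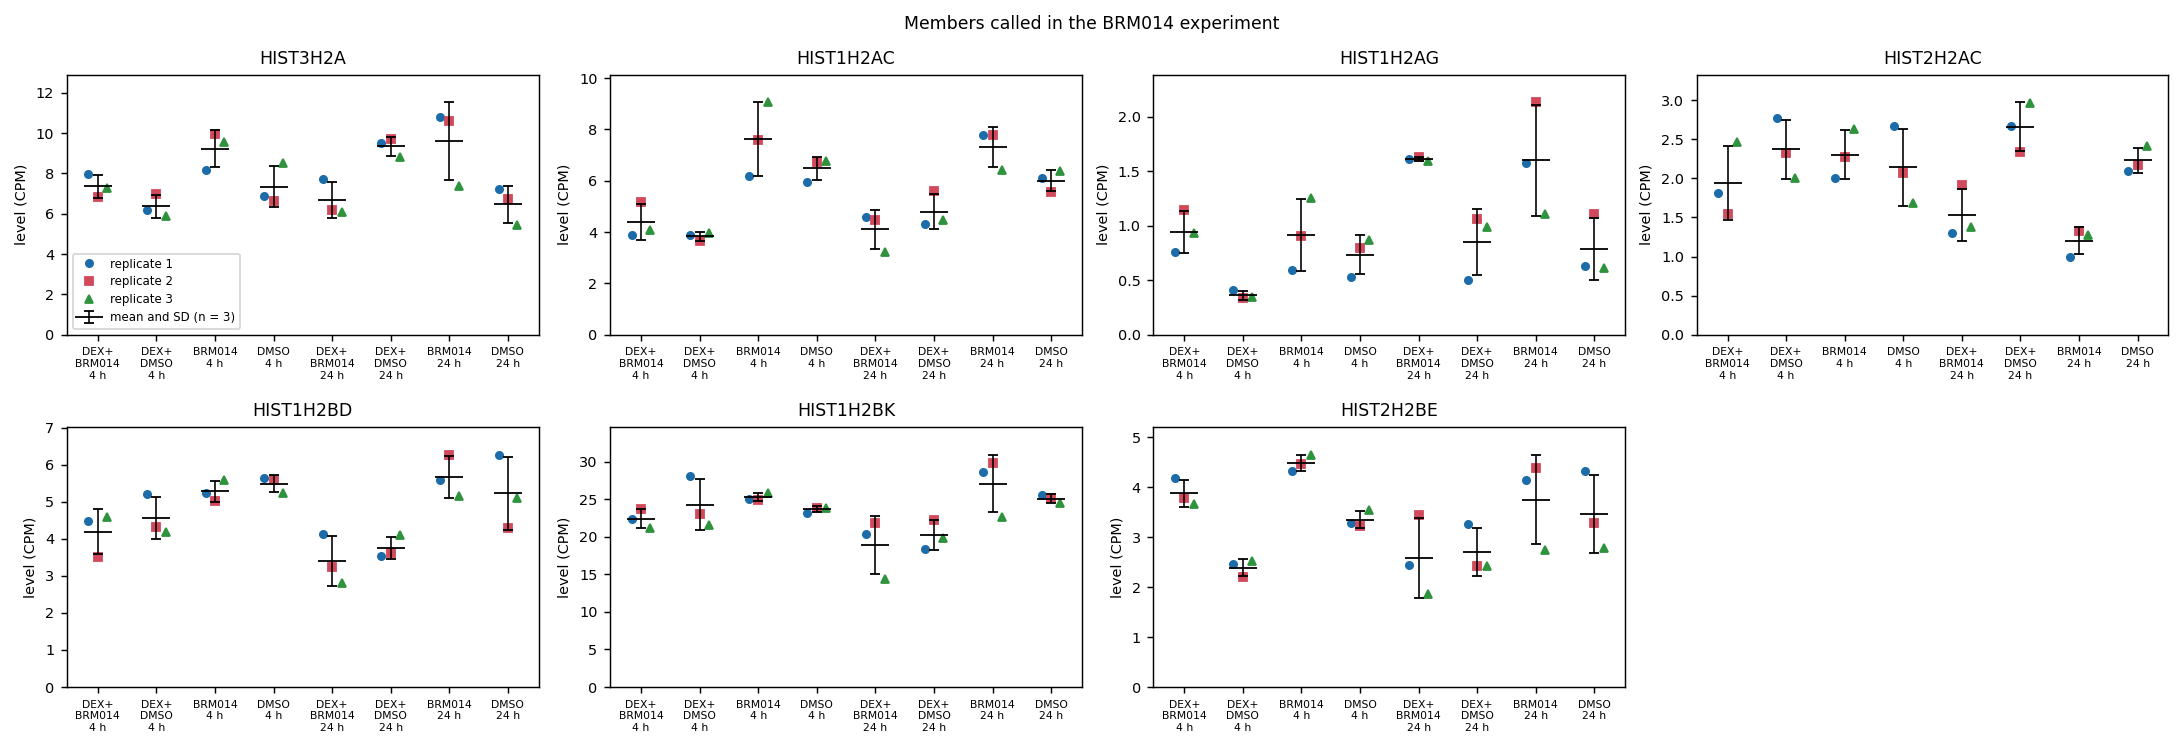
Levels of the 7 members called in the BRM014 experiment, in CPM on axes from 0; points are libraries and bars the mean and SD of 3, with the combined treatment leftmost and DMSO rightmost at each time. At 24 h HIST3H2A averages 9.6 CPM with BRM014 and 9.35 CPM with DEX and DMSO, against 6.67 CPM with both agents and 6.47 CPM with DMSO, and HIST2H2AC averages 1.2 CPM with BRM014, against 2.23 CPM with DMSO.

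HIST1H2AC was the member most often lower with DEX. At 4 h in DMSO cells it was at 3.89, 3.64 and 3.97 CPM with DEX, against 5.95, 6.74 and 6.75 CPM without. All DEX libraries lay well below all others, with a log2 fold change of -0.76 ± 0.164 (edgeR adjusted p = 0.00248). At 4 h in BRM014 cells it was at 3.88, 5.17 and 4.09 CPM with DEX, against 6.17, 7.6 and 9.05 CPM without, a log2 fold change of -0.80 ± 0.161 (edgeR adjusted p = 0.00255). At 24 h in BRM014 cells it was at 4.6, 4.46 and 3.24 CPM with DEX, against 7.77, 7.79 and 6.43 CPM without, a log2 fold change of -0.83 ± 0.162 (edgeR adjusted p = 0.00105). The groups did not overlap in any of these 3 comparisons, and each call held in every fit that left out 1 library. An offset for GC content took the value at 4 h in DMSO cells to -0.72 (edgeR adjusted p = 0.0552).

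The remaining DEX comparisons of HIST1H2AC gave values below 0 that did not pass the test. At 24 h in DMSO cells it was at 4.32, 5.61 and 4.48 CPM with DEX, against 6.09, 5.55 and 6.36 CPM without. Replicate 2 with DEX lay above the lowest control, and the log2 fold change was -0.32 ± 0.162 (edgeR adjusted p = 0.168). In the AP-1 experiment the log2 fold change was -0.52 in siCtl cells (edgeR adjusted p = 0.273), -0.45 in siFRA1 cells (0.492) and -0.06 in siJUN cells (0.959). In siCtl cells of that experiment it was at 4.9, 5.11 and 4.98 CPM with DEX, against 9.78, 6.32 and 5.45 CPM with vehicle, where the vehicle libraries were spread widely and all lay above those with DEX. In siGATA6 cells it was -0.30 (edgeR adjusted p = 0.185). Whether DEX acts differently on HIST1H2AC with BRM014 was tested at both times and not passed, at -0.04 ± 0.23 for 4 h (edgeR adjusted p = 1.0) and -0.51 ± 0.228 for 24 h (edgeR adjusted p = 0.222).

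DEX for 24 h lowered H2B members too. HIST1H2BD, an H2B gene with a spliced and polyadenylated form (chromosome 6, 26158146 to 26171349, plus strand), was at 4.13, 3.25 and 2.82 CPM with DEX in BRM014 cells, against 5.59, 6.27 and 5.16 CPM without. The groups lay apart, with a log2 fold change of -0.73 ± 0.16 (edgeR adjusted p = 0.00308) that stayed called in every fit without 1 library. In DMSO cells it was at 3.54, 3.62 and 4.1 CPM with DEX, against 6.27, 4.3 and 5.1 CPM without, a log2 fold change of -0.49 ± 0.161 (edgeR adjusted p = 0.0306). These groups did not overlap either, but the call held in 2 of 6 fits that left out 1 library, with -0.33 (edgeR adjusted p = 0.191) without DMSO replicate 1, -0.50 (0.0528) without DMSO replicate 3, and -0.45 and -0.46 (0.0969 and 0.0953) without replicate 1 or 2 with DEX. Without the 4 libraries whose deviations rose with GC content, HIST1H2BD was at -0.62 in BRM014 cells (edgeR adjusted p = 0.0552) and -0.48 in DMSO cells (0.0812). With the groups compared alone it was -0.74 in BRM014 cells (edgeR adjusted p = 0.0679) and -0.47 in DMSO cells (0.164), and with no filter -0.48 in DMSO cells (0.0549). HIST1H2BK, the most abundant member, was at 20.4, 21.8 and 14.4 CPM with DEX in BRM014 cells, against 28.7, 29.8 and 22.7 CPM without. No library overlapped, and its log2 fold change was -0.52 ± 0.131 (edgeR adjusted p = 0.00893). Without replicate 3 of DEX with BRM014, which was the lowest library, it was -0.36 (edgeR adjusted p = 0.0517), and with the groups compared alone -0.53 (0.145). In DMSO cells HIST1H2BK was at 18.4, 22.3 and 19.9 CPM with DEX, against 25.6, 25.2 and 24.5 CPM without, with no overlap and no call (-0.31 ± 0.131, edgeR adjusted p = 0.0874).

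DEX at 24 h in BRM014 cells gave the lowest member median of the 27 comparisons, a log2 fold change of -0.49. None of the 28 members was called higher and 4 were called lower, against 7.55% and 6.21% of all genes. Groups did not overlap for 7 members, against 25.5% of all genes. All 9 tested members of the polyadenylated list had a log2 fold change below 0, with a median of -0.68, and 11 of 19 other members did, with a median of -0.18. Over all genes the median was -0.02 and 47.2% were above 0. Summed over all members the level was 64.5, 63.3 and 46.4 CPM with DEX and BRM014, against 81.1, 84.4 and 67.7 CPM with BRM014, and replicate 3 was the lowest on both sides. Replicate 3 of both groups was also a library whose deviations fell with GC content (Spearman -0.54 and -0.5), and without the 3 such libraries the same 4 members were called. Without the 4 libraries whose deviations rose with GC content, 2 were called. Whether the difference between the list and the rest exceeds chance was not tested. Cell type markers moved in this comparison too. Of 5 BT549 markers CD44 (log2 fold change -1.05, edgeR adjusted p = 1.44e-07) and AXL (-0.49, 0.00257) were called lower, and the 5 summed to 2650 to 3240 CPM with DEX and BRM014, against 3400 to 3950 CPM with BRM014. Of 6 markers of other cell types CDH1 and PTPRC were tested and both were called lower (-1.06 and -2.31, edgeR adjusted p = 0.00323 and 0.0153). These 6 summed to 1.01 to 1.77 CPM with DEX and BRM014, against 2.81 to 3.58 CPM with BRM014, and ESR1 and PGR were at 0 in both groups. Their part in the histone values was not tested.

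Of the other DEX comparisons in this experiment, that at 4 h in DMSO cells had 0 of 28 members called higher and 1 lower, against 7.77% and 4.78% of all genes, and groups did not overlap for 6, against 36.2%. At 24 h in DMSO cells 1 member was called higher and 1 lower, against 12.6% and 13% of all genes, and groups did not overlap for 4, against 36.7%. At 4 h in BRM014 cells none was called higher and 1 lower, against 3.79% and 2.33%, and groups did not overlap for 7, against 21.5%. The median log2 fold change of the members was -0.23, -0.07 and -0.29 in these comparisons, with 4, 13 and 6 of 28 above 0, and -0.01 to -0.02 over all genes. With DEX at 24 h in DMSO cells CD44, AXL and SPARC were called lower (log2 fold changes -0.60, -0.73 and -0.54), as was CDH1 (-2.13). Markers of other cell types summed to 1.81 to 2.58 CPM with DEX, against 7.41 to 9.18 CPM with DMSO, and their part was not tested.

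In the AP-1 experiment, FRA1 knockdown in DEX-treated cells lowered HIST1H1C, HIST1H4E and HIST1H4A. HIST1H1C was at 5.02, 6.41 and 6.54 CPM in siFRA1 cells, against 10.9, 11.0 and 10.4 CPM in siCtl cells. The knockdown libraries all lay far below the controls, and the log2 fold change was -0.84 ± 0.146 (edgeR adjusted p = 0.000595). HIST1H4E, an H4 gene of the HIST1 cluster (chromosome 6, 26204552 to 26206038, plus strand), was at 1.49, 1.81 and 1.29 CPM in siFRA1 cells, against 2.65, 3.61 and 3.91 CPM in siCtl cells. Again no library overlapped, with a log2 fold change of -1.14 ± 0.262 (edgeR adjusted p = 0.00624). Both calls held in every fit that left out 1 library. HIST1H4A, another H4 gene, with 11 counts in the siFRA1 group and 41 in the siCtl group, was at 0.093, 0.329 and 0.553 CPM in siFRA1 cells, against 1.67, 1.32 and 0.879 CPM in siCtl cells. These groups did not overlap. Its log2 fold change was -1.95 ± 0.585 (edgeR adjusted p = 0.0313), and the call was lost without siCtl replicate 1 (-1.73, edgeR adjusted p = 0.114) or 2 (-1.93, 0.0854) or siFRA1 replicate 1 (-1.54, 0.15) or 2 (-1.96, 0.0855).

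Most members had log2 fold changes below 0 in that comparison. None of 33 was called higher and 3 were called lower, against 6.16% and 6.71% of all 13658 genes, and groups did not overlap for 9 members, against 31.3% of all genes. The median log2 fold change was -0.42 and 3 of 33 members were above 0, against a median of 0 and 50.2% above 0 over all genes. All 23 tested members outside the polyadenylated list were below 0. By family, the median was -0.99 over 5 H4 members, -0.84 over 3 H1, -0.41 over 8 H2A, -0.37 over 3 H3 and -0.19 over 14 H2B. The 3 H1 values ran from -0.86 to -0.08, and the difference between families was not tested. Summed over all members the level was 80.4, 90.7 and 90.8 CPM in siFRA1 cells, against 104, 107 and 110 CPM in siCtl cells, and the groups did not overlap. RNA45S5 was higher in siFRA1 cells with DEX (log2 fold change 0.28, edgeR adjusted p = 0.0124), and AXL was the sole BT549 marker called (-0.62, edgeR adjusted p = 0.000892). Markers of other cell types summed to 7.8 to 10.2 CPM in siFRA1 cells, against 4.93 to 9.68 CPM in siCtl cells, and the part of these RNAs in the histone values was not tested.

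With vehicle, FRA1 knockdown left no member called. Both edgeR and DESeq2 called 0 of 33, and 5 had an unadjusted edgeR p under 0.05, against 5.54% of all genes called higher and 5.27% called lower. Groups did not overlap for 7 members, against 30.7% of all genes. The median log2 fold change was -0.31 with 7 of 33 above 0, against 0 and 49.9% over all genes. The sum was 99.6, 91.5 and 97.9 CPM in siFRA1 cells, against 115, 111 and 116 CPM in siCtl cells, and did not overlap. HIST1H1C was at 7.21, 7.33 and 7.29 CPM in siFRA1 cells, against 8.33, 10.4 and 8.22 CPM in siCtl cells, below every control but short of the threshold (-0.31 ± 0.143, edgeR adjusted p = 0.183). Whether the FRA1 effect differs with and without DEX was not tested.

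JUN knockdown left no member called in either treatment. With vehicle both tools called 0 of 33 and 2 had an unadjusted edgeR p under 0.05, against 3.68% of all genes called higher and 3.14% called lower, and groups did not overlap for 4, against 23.8%. With DEX both tools called 0 and 1 had an unadjusted edgeR p under 0.05, against 3.27% and 3.32%, and groups did not overlap for 4, against 22.6%. HIST1H1C with DEX was at 11.3, 10.4 and 11.5 CPM in siJUN cells, against 10.9, 11.0 and 10.4 CPM in siCtl cells, and these groups overlapped.

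Set directly against each other, the siRNAs differed for 4 members. With DEX, HIST1H1C was higher in siJUN cells, at the values just given, than in siFRA1 cells, where it was at 5.02, 6.41 and 6.54 CPM, by 0.88 ± 0.143 on the log2 scale (edgeR adjusted p = 0.000421). HIST4H4, the H4 gene of chromosome 12, was at 1.92, 0.977 and 1.19 CPM in siJUN cells, against 0.372, 0.575 and 0.553 CPM in siFRA1 cells, a log2 fold change of 1.39 ± 0.412 (edgeR adjusted p = 0.0413) from 51 and 17 counts. With vehicle, HIST1H2BD was at 9.41, 9.3 and 9.95 CPM in siJUN cells, against 5.87, 5.13 and 5.29 CPM in siFRA1 cells. Those libraries were far apart, with a log2 fold change of 0.81 ± 0.165 (edgeR adjusted p = 0.00316). HIST1H2BJ, an H2B gene, was at 1.71, 2.76 and 2.17 CPM in siJUN cells, against 1.33, 0.733 and 0.801 CPM in siFRA1 cells, a log2 fold change of 1.22 ± 0.378 (edgeR adjusted p = 0.0498). No pair of groups overlapped for these 4 members. The HIST1H1C and HIST1H2BD calls held in every fit that left out 1 library. HIST1H2BJ held in none of 6, at 1.02 to 1.52 and adjusted p in edgeR of 0.0514 to 0.199, whichever library was left out. It was also lost with no filter (1.21, edgeR adjusted p = 0.0624), library totals (1.21, 0.0544), DESeq2 size factors (1.22, 0.0505), the GC offset (1.21, 0.0517) and the groups compared alone (1.22, 0.0773). HIST4H4 was lost without siFRA1 replicate 1 (1.22, edgeR adjusted p = 0.164), 2 (1.51, 0.0907) or 3 (1.46, 0.0802) or siJUN replicate 1 (1.07, 0.174) or 3 (1.46, 0.0574), with no filter (1.39, 0.0793) and with the groups compared alone (1.39, 0.115), and DESeq2 gave it no adjusted p. Between siJUN and siFRA1 cells AXL was also higher and CD44 lower with each treatment, as was CDH1 higher, and their part was not tested. With vehicle 2 of 33 members were called higher and none lower, against 3.76% and 4.72% of all genes, and groups did not overlap for 5, against 25%. With DEX the counts were again 2 and none, against 3.46% and 4.23%, and groups did not overlap for 6, against 23.6%.

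**Figure D4:**
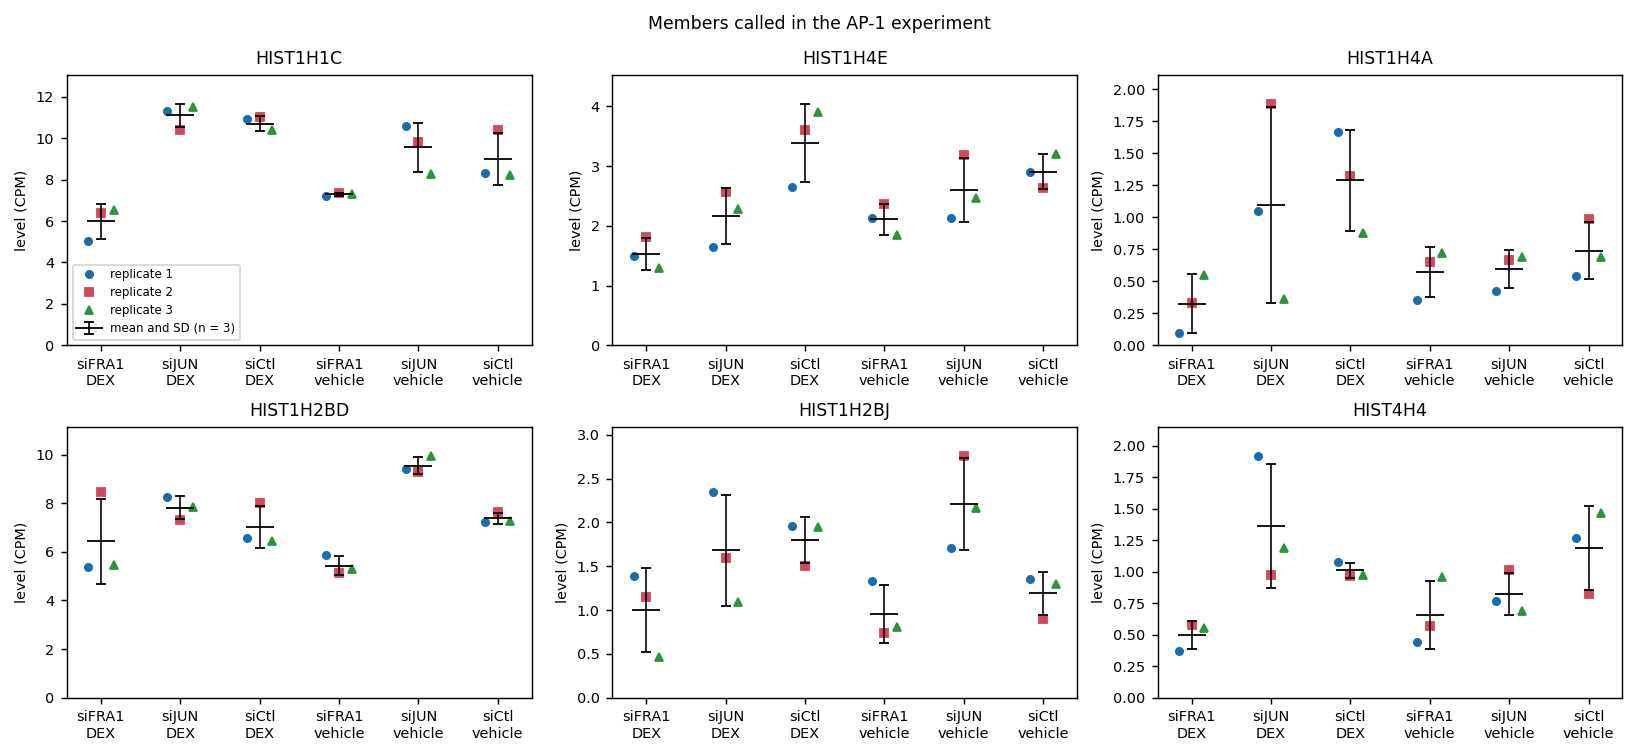
Levels of the 6 members called in the AP-1 experiment, in CPM on axes from 0; points are libraries and bars the mean and SD of 3, with DEX groups on the left and siCtl rightmost in each treatment. HIST1H1C averages 5.99 CPM in siFRA1 cells with DEX, against 10.7 CPM in siCtl cells with DEX, and HIST1H4E averages 1.53 CPM, against 3.39 CPM.

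DEX itself left no member called in the AP-1 experiment. In siCtl cells edgeR and DESeq2 called 0 of 33 members and 1 had an unadjusted edgeR p under 0.05, against 3.47% of all genes called higher and 2.05% called lower, and groups did not overlap for 4, against 20.1%. In siFRA1 cells both called 0 and none had an unadjusted edgeR p under 0.05, against 3.17% and 1.76%, and groups did not overlap for 3, against 16.6%. In siJUN cells both called 0 and 1 had an unadjusted edgeR p under 0.05, against 3.46% and 2.23%, and groups did not overlap for 5, against 16%. HIST1H4A was at 1.67, 1.32 and 0.879 CPM with DEX, against 0.543, 0.985 and 0.692 CPM with vehicle in siCtl cells, overlapping and short of the threshold (0.78 ± 0.5, edgeR adjusted p = 0.595).

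Several abundant or polyadenylated members were never called or were called once. HIST1H2BK ranged from -0.52 (DEX at 24 h in BRM014 cells) to 0.23 (siJUN against siFRA1 with DEX) over the 27 comparisons. HIST1H2BC, an H2B gene, ranged from -0.82 ± 0.507 to 0.54 ± 0.474 and HIST1H4H, an H4 gene, from -0.94 ± 0.388 to 0.49 ± 0.336, and the lowest adjusted p in edgeR was 0.34 for HIST1H2BC and 0.121 for HIST1H4H. HIST2H2BF, an H2B gene, was tested in the AP-1 experiment alone and ranged from -0.38 to 0.14. HIST1H3H, the most abundant H3 member, ranged from -0.63 to 1.09, with a lowest adjusted p in edgeR of 0.11.

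Of 26 S-phase and replication genes, which are active when canonical histones are made, 2 were called higher and 10 lower with BRM014 at 24 h, against 15.1% and 16.4% of all genes, with a median log2 fold change of -0.28, in the comparison in which HIST2H2AC fell and HIST3H2A and HIST1H2AG rose. CDC6, a replication licensing factor, was the lowest of them (-0.60, edgeR adjusted p = 0.000595). With DEX at 24 h, 12 of the 26 were called higher and 0 lower in DMSO cells, against 12.6% and 13% of all genes, with a median of 0.30. In BRM014 cells 6 were called higher and 0 lower, against 7.55% and 6.21%, with a median of 0.19, where all 9 tested members of the polyadenylated list were below 0. CCNE1, the cyclin that drives entry into S phase, was higher in both (0.52 and 0.64, edgeR adjusted p = 0.000701 and 0.000151). With FRA1 knockdown and DEX, 1 was called higher and 2 lower, against 6.16% and 6.71%, with a median of -0.06.

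Of 17 symbols for histone mRNA processing and histone gene transcription, 15 were tested in each experiment. SLBP, which binds the stem-loop, was higher with DEX at 24 h in DMSO cells (0.26, edgeR adjusted p = 0.016) and in BRM014 cells (0.30, edgeR adjusted p = 0.01). LSM11, of the U7 particle, was higher in the same comparisons (0.57 and 0.53, edgeR adjusted p = 0.00393 and 0.0132) and lower with BRM014 at 24 h (-0.78, edgeR adjusted p = 0.000201). After GATA6 knockdown with vehicle 4 were called higher and none lower, against 12.1% and 11.6% of all genes, namely LSM11 (0.50), NPAT, a coactivator of histone gene transcription (0.24), ERI1, an exonuclease that acts on histone mRNA ends (0.20), and CASP8AP2, a U7-linked processing factor (0.20). HINFP, a transcription factor of H4 genes, was lower with FRA1 knockdown and DEX (-0.44, edgeR adjusted p = 0.014). With vehicle it was also lower after FRA1 knockdown (-0.40, edgeR adjusted p = 0.0276). In all, FRA1 knockdown lowered 3 of the 15 with DEX and 1 with vehicle, against 6.71% and 5.27% of all genes, and raised none. The H4 members HIST1H4A and HIST1H4E were called lower with DEX, and no member was called with vehicle. The part of HINFP in the H4 values was not tested. ZCCHC6, a terminal uridylyltransferase, was higher with DEX in siCtl cells of the AP-1 experiment (0.93, edgeR adjusted p = 8.17e-09). RNU7-1, the U7 RNA, had no count in any library.

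Replacement histones are made outside S phase as well, mostly from polyadenylated mRNAs. With BRM014 at 24 h, 3 of 9 tested were lower and none higher, against 16.4% and 15.1% of all genes, led by H3F3B, an H3.3 gene (-0.45, edgeR adjusted p = 0.000685), and H2AFZ, the H2A.Z gene (-0.34, edgeR adjusted p = 0.0093). H2AFJ, an H2A variant gene, was lower after GATA6 knockdown with vehicle (-0.44, edgeR adjusted p = 1.49e-06) and with DEX (-0.45, edgeR adjusted p = 1.07e-06), as HIST3H2A was. In all 1 of the 9 was called higher and 1 lower with vehicle, against 12.1% and 11.6% of all genes, and 1 higher and 3 lower with DEX, against 11.1% and 11.5%. H2AFV was lower after FRA1 knockdown with DEX (-0.36, edgeR adjusted p = 0.0162) and with vehicle (-0.37, edgeR adjusted p = 0.0159). Of 12 mitosis genes, none was called in any AP-1 comparison, and none was called higher after GATA6 knockdown, while 4 were called lower with vehicle and 5 with DEX, against 11.6% and 11.5% of all genes. Of 7 cell cycle inhibitors, 0 to 4 were called higher and 0 to 3 lower over the 27 comparisons. With DEX at 4 h in DMSO cells 4 of them were called higher and 2 lower, against 7.77% and 4.78% of all genes, and at 24 h in BRM014 cells 3 and 2, against 7.55% and 6.21%. Of 12 RNAs without a poly(A) tail, 6 were tested in the GATA6 experiment, 6 in the BRM014 experiment and 8 in the AP-1 experiment, and apart from RN7SK and RNA45S5 after GATA6 knockdown no comparison had more than 1 of them called.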

How the data were processed

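Raw counts per gene were deposited by the authors, 1 table per library; per the submitters' processing notes, the tools included featureCounts for counting, with bcl2fastq, DESeq2 and SAMtools, on GRCh38 (hg38). Annotation, strand setting and multi-mapping rules are not given in the sources. Headers of the AP-1 tables carry library numbers that differ from the deposited ones, and the deposited assignment of table to sample was followed; 1 table of the whole series was not used. Counts were fitted per experiment with edgeR 4.0.16 (R 4.3.3; filterByExpr, TMM, robust quasi-likelihood test, 1 term per group, two-sided), with p-values adjusted by Benjamini-Hochberg over all genes tested; CPM are counts per 1000000 of the TMM-scaled library size. DESeq2 1.42.0 was used for alternatives. The fits were tested on simulated counts. The members and the gene lists were chosen with earlier results of these data known, and the lists hold no independent evidence. The rule named all called members (at most 10 per direction), the polyadenylated list and the most abundant member of each histone family; of other lists, the genes named are among those called. GC content and stem-loops came from GENCODE v29 and promoters from RefSeq GRCh38.p14. Alternatives were DESeq2, no filter on low counts, library totals, DESeq2 size factors, a GC offset, the replicate number as a block, each pair of groups alone and each library left out.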

Additional observations from a re-analysis of the deposited data

Results flagged for a closer look

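Between conditions, 3 results differed by a test of the difference itself. The BRM014 effect on HIST2H2AC was -0.99 on the log2 scale for 24 h minus 4 h, since the level was lower with BRM014 at 24 h and overlapped its control at 4 h. The DEX effect on HIST3H2A in DMSO cells was 0.74 for 24 h minus 4 h. The BRM014 by DEX interaction on HIST3H2A at 24 h was -1.06, the DEX effect being above 0 in DMSO cells and below 0 in BRM014 cells. In the order given, the calls held in 2, 4 and 12 of 12 fits that left out 1 library. Without the 4 libraries whose deviations rose with GC content, both HIST3H2A calls were lost. The DEX effect was then 0.7 (edgeR adjusted p = 0.0909) and the interaction -0.89 (edgeR adjusted p = 0.0609).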

How the results depend on the processing

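Over 31 calls of single members and 489 alternative values, 381 stayed called in the same direction, 108 kept the direction and lost the call, and 0 turned sign; 8 calls held in every alternative. For the causes of lost calls no test was made. Same-numbered libraries were not paired by the labels. Between groups, the lowest correlation of their deviations was 0.09 in the GATA6, -0.19 in the BRM014 and 0.05 in the AP-1 experiment. Their median was 0.16, 0.15 and 0.24, against -0.07, -0.08 and -0.08 for libraries of unlike number. In the GATA6 experiment no pair of unlike number was above -0.02. In the same order, 12 of 12, 22 of 24 and 17 of 18 libraries matched best with a library of their own number. The main fits held no replicate term. Member counts under other settings are given here without the share of all genes called in the same fit. They describe how the calls moved, and a higher count is not read as a result about the members. The replicate block gave 3 members for DEX 2 h in siCtl cells (0 without it; also 3 with the GC offset), 4 for siJUN against siFRA1 with DEX (2 without it; 6 with the GC offset), and with the GC offset 4 for siJUN against siFRA1 with vehicle (2 without) and 0 for the BRM014 effect 24 h minus 4 h (1 without); the block alone moved no other count by over 1.5 times. For DEX 2 h in siCtl cells, no filter gave 1, library totals 2 and the GC offset 1. Groups compared alone gave 1 for BRM014 24 h (3), 0 for BRM014 24 h with DEX (3) and 0 for DEX 24 h in DMSO (2). They gave 1 for DEX 24 h in BRM014 (4) and 0 for the BRM014 effect 24 h minus 4 h (1). For siJUN against siFRA1 they gave 1 with vehicle and with DEX (2 each). These fits use fewer libraries, and their filter, scaling and spread were estimated anew. Library totals gave 5 for BRM014 24 h and 1 for siJUN against siFRA1 with vehicle, which no filter, DESeq2 size factors and the GC offset also gave; DESeq2 gave 1 for siJUN against siFRA1 with DEX. The GC offset gave 0 for DEX 4 h in DMSO (1). No filter, library totals and the GC offset gave 0 for the BRM014 effect 24 h minus 4 h, and no filter gave 1 for DEX 24 h in DMSO. In alternatives chosen after the data were seen, leaving out the libraries with a GC-rich deviation gave 1 for BRM014 4 h with DEX, 1 for DEX 24 h in DMSO, 2 for DEX 24 h in BRM014, 2 for the BRM014 effect 24 h minus 4 h, 0 for the DEX effect 24 h minus 4 h and 0 for the interaction at 24 h; leaving out those with a GC-poor deviation gave 5 for BRM014 24 h, 4 for DEX 24 h in DMSO, 0 for the BRM014 effect and 2 for the DEX effect 24 h minus 4 h. Leaving out 1 library gave 0 to 2 members for DEX 2 h in siCtl, 1 to 4 for siGATA6 with vehicle (1 without siGATA6 replicate 1), 1 to 2 for siGATA6 with DEX, 2 to 4 for BRM014 24 h, 0 to 1 for BRM014 4 h with DEX, 1 to 3 for BRM014 24 h with DEX, 0 to 2 for DEX 24 h in DMSO, 2 to 5 for DEX 24 h in BRM014, 0 to 1 for the BRM014 and the DEX effect 24 h minus 4 h, 1 to 2 for the interaction at 24 h, and 1 to 2 for siJUN against siFRA1 with each treatment. Library totals moved the summed level to 64.4 CPM in DEX with BRM014 at 4 h (65.8) and to 104 CPM in siCtl cells with DEX of the AP-1 experiment (107). Members under about 1 CPM rest on few counts, and 37 of 73 were never tested.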
